A study of Mus musculus with 26 samples.

Results

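The regions described here are the 100 bp stretches of chromatin that ATAC-seq listed as open on day 5 of motor neuron differentiation and also on days 2, 4 and 6. They were selected on the 4 deposited ATAC peak lists: a day 5 peak was kept when it overlapped, by at least 1 bp, a peak in each of the other 3 lists. Peaks scoring over 100 times the median of their own list were left out, which took 8 of the 55131 day 5 peaks. Of the remaining 55123 day 5 regions, 18383, or 33.3%, met the rule, and the other 36740 serve as the comparison.

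The study differentiated mouse embryonic stem cells into spinal motor neurons and mapped open chromatin, histone acetylation and transcription factor binding over time, with 26 samples in all and 19 lists used here. ATAC-seq was done once per day in the iCre line: on day 2 in primitive ectodermal cells that had received no factor, on day 4 in motor neuron progenitors, and on days 5 and 6 in postmitotic motor neurons. Cells of days 4 to 6 had received 1 µM retinoic acid (RA) and 0.25 µM SAG, an agonist of the Hedgehog pathway, from day 2, and those of days 5 and 6 also 5 µM DAPT, an inhibitor of Notch processing, on day 4 or on days 4 and 5. H3K27ac (2 libraries on day 4, 1 each on days 5 and 6), p300 and Onecut1 (1 each on days 5 and 6) and Isl1 (2 each on days 5 and 6) were mapped in cells treated alike.

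The DNase, Ngn2 and Lhx3 lists came from other lines, and their differences from the ATAC cells cannot be told apart from differences of day or assay. Day 0 DNase-seq was done in untreated stem cells of the HBG3 line. Ngn2 was mapped through a V5 tag on day 4 in a line in which 3 µg/ml doxycycline on day 3 switched the factor on. The library labelled Lhx3 was mapped through V5 on day 4 in a line given RA and doxycycline on day 2, with no SAG in its label, and the name of its deposited list mentions Isl1. All lines are labelled as derived from Ainv15 cells, a doxycycline-inducible stem cell line. The second day 4 H3K27ac list carries the line name HBG3 in its own name while its label says iCre.

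ATAC-seq uses a transposase that inserts into DNA not wrapped in nucleosomes, so that its peaks mark promoters, enhancers and insulators. Regions that stay open through differentiation are known to include promoters of genes that every cell uses and sites of the insulator protein CTCF, whereas enhancers open and close with cell type. Acetylation of histone H3 at lysine 27 marks the nucleosomes beside active promoters and enhancers, and p300 is an acetyltransferase that writes this mark. Ngn2 is the proneural factor that drives progenitors out of the cell cycle. Isl1 and Lhx3 are homeodomain factors that together specify motor neurons, and Onecut1 is a cut-homeodomain factor of young postmitotic motor neurons.

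The regions shared by all 4 days were the most frequent of the 8 possible patterns among day 5 regions. Day 5 alone came next with 11259 regions (20.4%), then days 5 and 6 with 8525 (15.5%), and the remaining 5 patterns held between 2739 and 4021 regions each. Dropping the requirement for day 2 gave 22404 regions, dropping day 4 gave 22233 and dropping day 6 gave 21602. The 4 lists differed in length, with 85989 peaks on day 2, 47839 on day 4, 55131 on day 5 and 52645 on day 6. The shared regions therefore met 21.4% of the used day 2 peaks, 38.4% of day 4, 33.3% of day 5 and 34.9% of day 6.

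**Figure D1:**
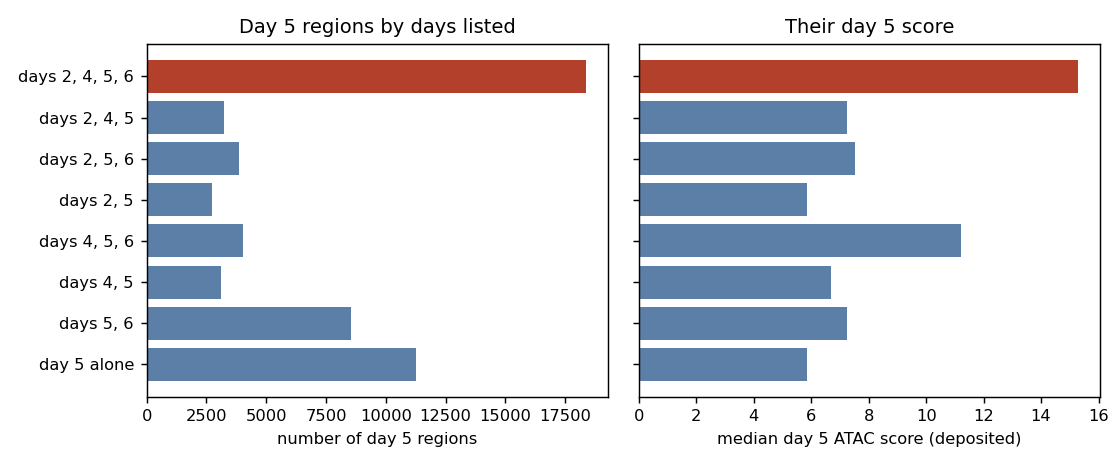
Number of day 5 regions (left) and median deposited day 5 ATAC score (right) for each combination of days on which a region was listed, with the regions open on all 4 days in red. The red bars, 18383 regions and a median score of 15.3, are the longest in both panels.

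Regions lay close to the rule's threshold on both sides. For 796 of the 18383 regions (4.33%) the smallest of the 3 overlaps was 10 bp or less, and their median day 5 score was 16.2. Outside the rule, 695 of the 11090 regions open on exactly 2 other days missed the third day by a gap of 10 bp or less, with a median score of 16.2 as well. The median of the smallest overlap was 61 bp.

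Day 5 scores, a strength value the authors gave each peak, were high among the shared regions. Their median was 15.3, with an interquartile range of 9.48 to 26.5, against a median of 6.69 and an interquartile range of 5.30 to 10.0 in the other day 5 regions. Regions open on day 5 alone had a median of 5.86. These scores come from the same lists as the rule and are given as a description, with no test. The day 5 list was also divided by score into 4 groups of nearly equal size, from 1 (lowest) to 4 (highest). The shared regions made up 7.07% of score group 1, 17.5% of group 2, 38.2% of group 3 and 68.6% of group 4.

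Within each list the shared regions sat mostly in the top 50%. Their median percentile was 80.1 in the day 2 list, 69.2 in the day 4 list, 75.9 in the day 5 list and 75.1 in the day 6 list, which are positions in lists of different length and do not measure a change. The top 10% of the list held 29.0% of them on day 2, 18.7% on day 4, 23.9% on day 5 and 22.6% on day 6. In all 4 lists at once, 2346 regions (12.8%) were in the top 10%, 10709 (58.3%) in the top 50% and 881 (4.79%) in the bottom 50%.

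The order of the regions by score was more alike between later days than between day 2 and the rest. Across the 18383 regions, Spearman's rho was 0.89 between days 5 and 6, 0.83 between days 4 and 5 and 0.75 between days 4 and 6. With day 2 it was 0.70 for day 4, 0.69 for day 5 and 0.64 for day 6. Each day is 1 library, regions are not independent replicates, and some regions lie close together. A single region's percentiles spanned a median of 21.4 points over the 4 lists, and the widest 5% spanned at least 64.8 points.

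The regions lay on every numbered mouse chromosome and on X, and 2 lay on Y, which had 5 day 5 regions. Among the numbered chromosomes and X, they were 30.7% (95% exact binomial interval 29.1 to 32.3) of the day 5 regions of chromosome 3, the lowest, and 39.5% (37.8 to 41.2) of those of chromosome 7, the highest. Chromosomes 11 and 19 had 38.1% (36.4 to 39.9) and 37.7% (35.0 to 40.5), which overlap chromosome 7, and X had 35.6% (33.2 to 38.1). Contigs with no fixed place in the mm9 assembly held 81 of the regions. The next shared region was a median of 21261 bp away, and 3309 regions had another within 1000 bp. All intervals here and below are exact binomial ones for shares and Newcombe ones for differences, at the 95% level. They cover counting error only and are too narrow where neighbouring regions share a peak.

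The strongest shared regions, by median percentile over the 4 lists, included chr9:3023488-3023587, which lay near a peak left out. On chromosome 9, chr9:3002065-3002164 scored 427.6 on day 2, 491.1 on day 4, 424.8 on day 5 and 322.1 on day 6. The region chr9:3023488-3023587 scored 480.3, 531.5, 478.0 and 384.9 on the same days, and the left-out peak near it, chr9:3024428-3024527, scored 1022.7 on day 5. The remaining 3 were chr9:35112934-35113033 with a day 5 score of 631.1, chr3:5860622-5860721 with 392.4 and chrX:166435971-166436070 with 452.6. Of these 5, only the chromosome 3 region held a p300 event on day 5, with 208.0 reads, and only it held Ngn2 and Onecut1.

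The 8 peaks left out lay at 5 places. The 2 highest, chr2:98507237-98507336 and chr1:24619905-24620004, scored 5503.5 and 5343.6, which is 657.5 and 638.4 times the list median. The others were chr2:98505245-98505344, chr2:98506720-98506819, chr1:24619539-24619638, chr6:103599153-103599252, chr11:3023858-3023957 and the chromosome 9 peak above. The strongest peak kept in the list, chr12:3109914-3110013, scored 731.0, or 87.3 times the median. It was not among the shared regions.

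DNase hypersensitivity in stem cells was found at few of the regions, though more often than elsewhere. A day 0 DNase position lay within 100 bp of 1301 shared regions, 7.08%, against 936 of the other day 5 regions, 2.55%. The background over all 55123 day 5 regions was 4.06%. The difference was 4.53 percentage points (4.13 to 4.94). The regions are defined by openness from day 2 on, and the DNase list, with 9955 positions from another assay and line, met only part of it: 36.5% of its positions lay within 100 bp of a day 2 ATAC peak, 23.5% of a day 4, 22.3% of a day 5 and 19.9% of a day 6 peak. Shared regions accounted for 13.0% of the DNase list and other day 5 regions for 9.27%.

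Where DNase and ATAC met, they met closely. DNase positions within 500 bp of a shared region lay a median of 47 bp from its centre, and 52.6% were within 50 bp. Around the other day 5 regions the median distance was 113 bp and 28.7% were within 50 bp. The deposited DNase intensity had a median of 65.0 at shared regions and 53.0 at the others, against 51.0 over the DNase list.

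H3K27ac marked both groups, and the shared regions more often in the progenitors. In the first day 4 library 30.6% of the shared regions overlapped an H3K27ac peak, against 17.0% of the other day 5 regions, and in the second 31.3% against 15.1%. The backgrounds were 21.5% and 20.5%, and the differences were 13.7 points (12.9 to 14.4) and 16.1 points (15.4 to 16.9). Among regions of like day 5 score these differences were much smaller. In score groups 1 to 4 they were 1.46, 0.0074, 2.73 and 2.31 points in the first library. In the second they were 2.61, 2.25, 5.22 and 5.25 points. For the first library the intervals of groups 1 and 2 spanned 0. On day 5 the shares were 14.1% and 13.0%, with a background of 13.3% and a difference of 1.18 points (0.579 to 1.80). On day 6 they were 32.1% and 29.2%, with a background of 30.1% and a difference of 2.89 points (2.07 to 3.71). Against the regions open on days 5 and 6 only, 37.6% of which overlapped day 6 H3K27ac, the difference was −5.53 points (−6.76 to −4.31). The shares on days 5 and 6 were thus near the background. The H3K27ac lists had 30641, 24353, 24525 and 47275 peaks in the same order, so the shares of different libraries do not measure a change between days.

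The 2 day 4 libraries called largely the same shared regions. Of the 6443 shared regions marked in either, 4931 (76.5%) were marked in both, and of the 6801 other day 5 regions marked in either, 4988 (73.3%) were marked in both. An H3K27ac peak in all 4 libraries covered 2286 shared regions (12.4%), against 7.39% of the others and a background of 9.07%. In score groups 1 to 4 the difference was 1.14, 0.121, 0.261 and −1.88 points, and the intervals of groups 2 and 3 spanned 0. No library covered 10462 of the shared regions (56.9%), against 63.6% of the others. A peak in any library covered 43.1% of shared regions, with a background of 38.6%. Among regions of like score this turned round. Such a peak covered 14.6%, 23.2%, 38.4% and 53.2% of shared regions in score groups 1 to 4, against 21.8%, 33.8%, 48.5% and 60.2% of the others.

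**Figure D2:**
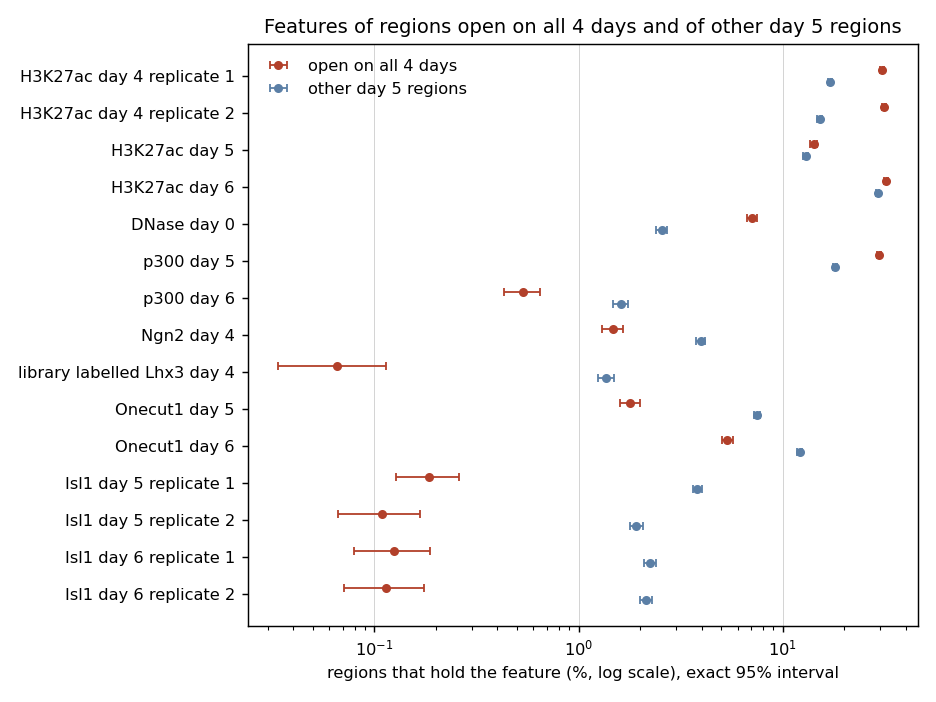
Percent of regions that hold each mapped feature (log scale), for the 18383 regions open on all 4 days (red, upper point) and the 36740 other day 5 regions (blue, lower point), with exact 95% intervals for counting error. Red lies to the right for H3K27ac, DNase and day 5 p300, and to the left for day 6 p300 and for every factor library.

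The mark lay beside the shared regions more often than on their centres. On day 5 only 6.81% of shared region centres were under an H3K27ac peak, while 23.8% of positions 250 bp away were. At the other day 5 regions the values were 9.19% at the centre and 15.5% at 250 bp. The highest coverage was 3.50 times that at the centre for shared regions and 1.68 times for the others. On day 4 the ratio was 2.09 and 1.86 for shared regions in the 2 libraries, against 1.36 and 1.26 for the others, and on day 6 it was 2.12 against 1.26. In each of the 4 libraries the dip was deeper at the shared regions. Shared regions also had higher day 5 ATAC scores, and the dip was not compared among regions of like score. At the centre itself the day 6 coverage was 19.4% for shared regions and 23.8% for the others, although 250 bp away shared regions reached 41.0%.

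**Figure D3:**
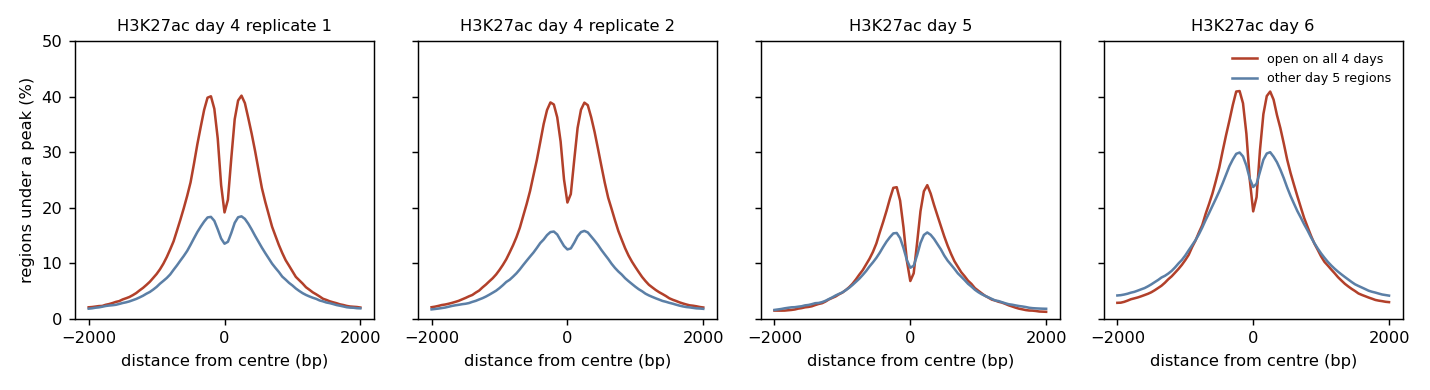
Percent of regions under an H3K27ac peak by distance from the region's centre in bp, in 4 panels for the 4 libraries, for regions open on all 4 days (red) and other day 5 regions (blue). Both curves dip at the centre and peak about 250 bp to each side, and the red dip is the deeper one, with 6.81% at the centre and 23.8% at 250 bp on day 5.

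Counting a peak within 500 bp, a distance chosen after the dip had been seen, raised the shares and widened the differences. H3K27ac then accompanied 54.6% and 51.8% of shared regions in the 2 day 4 libraries, against 27.4% and 23.0% of the others. On day 5 it accompanied 40.4% against 27.2%, a difference of 13.2 points (12.4 to 14.1), and on day 6 56.8% against 43.2%, a difference of 13.6 points (12.7 to 14.5). All 4 libraries had a peak within 500 bp of 6645 shared regions, 36.1%, against 14.1% of the others. No library had one within 500 bp of 6312 shared regions, 34.3%, against 46.4% of the others. Within groups of like day 5 score this turned round: a peak in any library lay near 22.2%, 34.1%, 53.9% and 84.0% of shared regions in score groups 1 to 4, against 35.6%, 49.5%, 67.5% and 87.6% of the others. A peak in all 4 libraries stayed more frequent at shared regions in each score group, by 1.56 points (0.293 to 3.16) in group 1 and 10.3 points (8.58 to 12.1) in group 4. Group 4 spans scores of 14.8 to 731.0, so shared and other regions in it are only loosely matched for score. Peaks in 1, 2 or 3 libraries lay near 10.3%, 8.93% and 10.3% of shared regions, against 21.8%, 10.4% and 7.26% of the others.

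Marks present in progenitors were mostly listed again in neurons. Of the 9202 shared regions with H3K27ac within 500 bp in both day 4 libraries, 74.7% (73.8 to 75.6) had it on day 5, against 76.1% (75.1 to 77.0) of 8010 other day 5 regions. On day 6 the shares were 87.8% (87.1 to 88.5) and 76.6% (75.7 to 77.5). Of the 8022 shared regions with the mark in neither day 4 library, 20.7% had it on day 6, against 32.2% of the 26211 others. H3K27ac listed first on day 6 was thus less frequent among shared regions, at 17.8% (17.0 to 18.6) of those unmarked on day 4, against 24.8% (24.3 to 25.3) of the others.

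The H3K27ac peaks that covered shared regions ranked high in their lists. Their median percentile was 84.6 and 80.7 in the 2 day 4 lists, 85.7 in the day 5 list and 88.0 in the day 6 list. Peaks over other day 5 regions had medians of 76.6, 74.1, 74.6 and 76.5. Peak width differed less, with medians of 733 and 797 bp, then 482 and 764 bp, at shared regions, against 752 and 816 bp, then 560 and 853 bp, at the others, in the same order of libraries.

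Day 5 p300 was found at 5424 shared regions, 29.5%, against 18.05% of the other day 5 regions. The background was 21.9% and the difference 11.5 points (10.7 to 12.2). On day 6 the p300 list held 1337 events, against 19398 on day 5, and only 98 shared regions, 0.533%, had one, against 1.61% of the others and a background of 1.25%. The depth of these libraries is unknown, so the lower number of day 6 events does not measure a loss of p300. Of the day 5 events, 29.1% lay at shared regions and 34.8% at other day 5 regions. Of the day 6 events, 7.33% (5.99 to 8.86) lay at shared regions and 43.8% (41.1 to 46.5) at others.

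The strength of the events differed less than their number. Reads per day 5 p300 event had a median of 65.0 at shared regions and 55.0 at the others. The events lay a median of 129 bp from shared region centres, against 106 bp for the others, and 20.6% against 27.7% were within 50 bp. The strongest day 5 p300 event at a shared region had 2283.0 reads and lay at chr12:55797784-55797883. It had H3K27ac in all 4 libraries and ATAC scores of 11.2, 23.4, 18.1 and 36.5 on days 2, 4, 5 and 6. The next, with 1644.1 reads, was at chr14:17408056-17408155 and had H3K27ac on day 4 only. The third, chr5:115939453-115939552 with 1546.2 reads, again held H3K27ac in all 4 libraries and was near the middle of the day 5 ATAC list, at percentile 53.0.

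p300 and H3K27ac were found together. Of the 2599 shared regions under a day 5 H3K27ac peak, 54.0% (52.0 to 55.9) held p300 on day 5, against 25.5% (24.8 to 26.2) of the shared regions without one. Among the other day 5 regions the shares were 37.6% (36.2 to 39.0) and 15.1% (14.7 to 15.5). With H3K27ac within 500 bp in every library, 50.4% (49.2 to 51.7) of shared regions held day 5 p300, against 41.1% (39.7 to 42.4) of other day 5 regions marked alike. With H3K27ac in no library within 500 bp, the shares were 6.51% (5.92 to 7.15) and 5.31% (4.97 to 5.65). Shared and other regions were not matched for day 5 score in these comparisons.

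Binding of the neuronal factors was rarer at the shared regions than at the other day 5 regions in every library. Isl1, which marks postmitotic motor neurons, was found in any of its 4 libraries at 77 shared regions, 0.419%, against 2593 of the others, 7.06%. The difference was −6.64 points (−6.92 to −6.36). Among the others, Isl1 was at 14.8% (14.0 to 15.6) of the regions open on days 5 and 6 only and at 7.67% (7.19 to 8.18) of those open on day 5 alone. By library the shared regions held 0.185% and 0.109% on day 5, against 3.81% and 1.91% of the others, with backgrounds of 2.6% and 1.31%. On day 6 they held 0.125% and 0.114%, against 2.24% and 2.14%, with backgrounds of 1.53% and 1.46%. Between 1.41% and 2.04% of the events in each Isl1 list lay at shared regions, while 57.0% to 68.5% lay at other day 5 regions.

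Of the 77 regions, 59 had an Isl1 event in a single library, 15 in 2 libraries, 3 in 3 and none in all 4. Of the other day 5 regions, 59 had one in all 4. The 3 with 3 libraries were chr13:90179291-90179390, chr4:124959911-124960010 and chr6:52103360-52103459, and all lacked an event in the first day 6 library. The chromosome 13 region had 72.0 reads in both day 5 libraries and 24.0 in the second day 6 library. Its ATAC score was 5.36 on day 2, 15.7 on day 4, 37.7 on day 5 and 22.3 on day 6. It also held Onecut1 on day 5, with 53.0 reads. It and the chromosome 4 region held events of the library labelled Lhx3, with 15.5 and 55.4 reads, and the chromosome 4 region held day 5 p300 with 118.0 reads. The chromosome 6 region held p300 with 874.1 reads on day 5 and Onecut1 with 366.2 and 426.0 reads on days 5 and 6. In total 12 shared regions, 0.0653%, held an event of the library labelled Lhx3, against 1.36% of the others and a background of 0.931%.

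Onecut1 was found at more of the shared regions than Isl1, from longer lists: 23245 events on day 5 and 63488 on day 6, against 1079 to 2260 in the Isl1 lists. Of its events, 1.85% on day 5 and 1.75% on day 6 lay at shared regions, within the range of the Isl1 lists. Shares from lists of such different length do not measure a change between days. On day 5 it was found at 329 shared regions, 1.79%, against 7.47% of the others, with a background of 5.57% and a difference of −5.68 points (−6.01 to −5.35). On day 6 it was found at 985, 5.36%, against 12.1%, with a background of 9.86% and a difference of −6.76 points (−7.22 to −6.29). Of the regions open on days 5 and 6 only, 26.3% held it on day 6. Both days held an event at 239 shared regions, so 72.6% (67.5 to 77.4) of the day 5 regions were bound again on day 6, against 75.8% (74.2 to 77.4) among the others. The strongest event of a shared region had a median of 27 reads on day 6, against 64 reads at other day 5 regions. On day 5 the medians were 17 and 33 reads. Counted per event, the medians at shared regions were 28.1 reads on day 6 and 19 on day 5, above the list medians of 16 and 13. Events at shared regions were also farther from the centre than at other day 5 regions, a median of 119 bp on day 6 against 83.0 bp.

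The strongest day 6 Onecut1 event among shared regions bound on both days had 653.9 reads, at chr7:134592618-134592717. This region had 457.7 Onecut1 reads on day 5, 114.1 p300 reads on day 5 and H3K27ac on days 4 and 6. Another, chr14:55711142-55711241, had 520.7 Onecut1 reads on day 6, 25.2 on day 5 and H3K27ac in all 4 libraries. The remaining one, on chromosome 18, had 556.5 reads on day 6 and 376.9 on day 5. All 3 held an event of the first day 6 Isl1 library. Of the 23 shared regions with an event in that library, 14 (60.9%, 38.5 to 80.3) held Onecut1 on day 6, against 8 of 21 (38.1%, 18.1 to 61.6) in the second day 6 library. Among these few regions the intervals overlap. Among the other day 5 regions the shares were 57.9% (54.4 to 61.3) of 822 and 47.4% (43.8 to 50.9) of 785, and those intervals do not. That Isl1 list and the day 6 Onecut1 list carry the same mark in their names, and whether the libraries were prepared together is not given.

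Ngn2 was found at 270 shared regions, 1.47%, against 3.97% of the other day 5 regions, with a background of 3.14% and a difference of −2.50 points (−2.76 to −2.23). Against the regions open on days 5 and 6 only, of which 0.903% held Ngn2, the difference had the other sign, at 0.566 points (0.288 to 0.823). Of the Ngn2 list, 8.42% lay at shared regions and 45.8% at other day 5 regions. The deposited strength of Ngn2 peaks was alike, with medians of 84.0 at shared regions and 91.0 at the others. Of the Ngn2 regions among the shared ones, 51.9% (45.7 to 58.0) held day 5 p300, against 29.2% (28.5 to 29.8) of shared regions without Ngn2.

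Among the shared regions, those with H3K27ac within 500 bp in more libraries had higher ATAC scores. Each region was ranked from 0 to 100 by its score among the 18383, separately on each day, and the median rank was taken over a class. Regions with H3K27ac within 500 bp in all 4 libraries had median ranks of 59.6 on day 2, 69.3 on day 4, 68.1 on day 5 and 68.1 on day 6. Regions with it in no library had 37.9, 23.6, 25.8 and 27.9. The gap between these classes was narrowest on day 2. The 3 classes between them lay in the order of their number of libraries on every day. By direct overlap, regions under a day 5 H3K27ac peak had a median rank of 45.4 on day 2, against 50.4 for those without. For day 6 H3K27ac the day 2 ranks were 49.1 and 50.4. On days 4, 5 and 6 regions under either kind of peak ranked higher. Regions under a peak of either day 4 library ranked higher on every day.

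The factor-bound members kept different ranks on different days. The 270 regions with Ngn2 on day 4 had median ranks of 52.8 on day 2, 74.2 on day 4, 59.6 on day 5 and 39.9 on day 6. The 77 regions with Isl1 had 41.0, 57.6, 71.7 and 54.2 on the same days. The Ngn2 class was highest on day 4 and the pooled Isl1 class on day 5. By Isl1 library, the 23 regions of the first day 6 library were instead highest on day 4, with 64.3, 82.9, 80.9 and 77.9 on days 2, 4, 5 and 6, while those of the other 3 libraries were highest on day 5. The 985 regions with day 6 Onecut1 stayed between 47.9 and 52.3, near the middle of all shared regions. The 5424 regions with day 5 p300 had 52.8 on day 2 and between 62.2 and 63.5 later. The 1301 regions with DNase ranged from 57.6 on day 2 to 62.6 on day 4. These ranks rest on 1 ATAC library a day, and their differences were not tested.

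**Figure D4:**
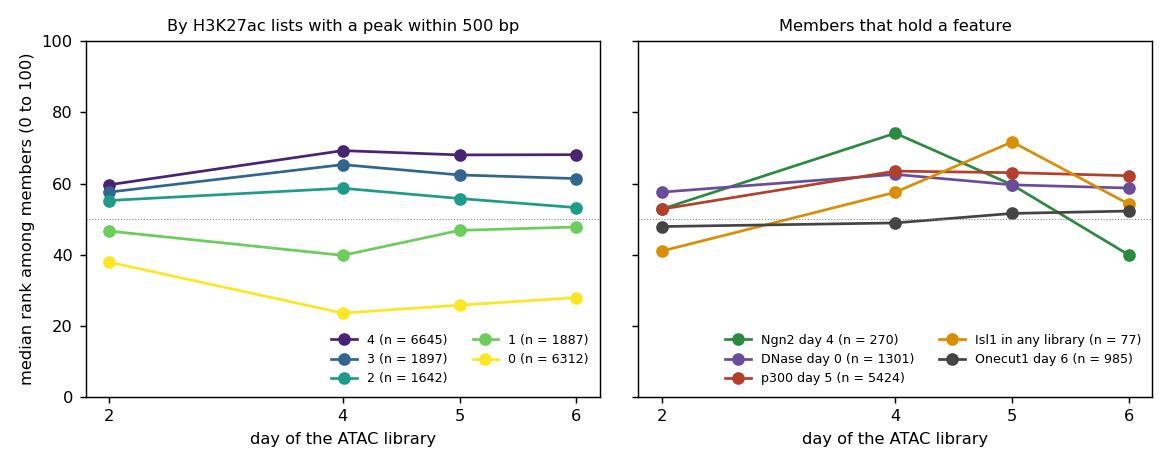
Median rank (0 to 100) of classes of regions among the 18383 regions open on all 4 days, by day of the ATAC library. Left, classes by the number of H3K27ac lists with a peak within 500 bp, from 4 lists at the top to 0 lists at the bottom. Right, regions that hold a feature: the Ngn2 class is highest on day 4 at 74.2 and the pooled Isl1 class on day 5 at 71.7.

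Stronger shared regions held p300 and flanking H3K27ac more often. They were divided by median percentile into 10 equal groups, from 1 (weakest) to 10 (strongest). The share with day 5 p300 was 8.37% in group 1, 40.8% in group 8, the highest, and 37.2% in group 10. The share with day 6 H3K27ac within 500 bp was 15.8% in group 1 and 81.9% in group 10. Direct overlap with day 6 H3K27ac was 10.4% in group 1, 42.7% in group 6, the highest, and 28.9% in group 10. The share with day 6 Onecut1 varied between 4.68% and 6.64% over the 10 groups, with no order.

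Because the shared regions scored higher on day 5, the comparison with the other day 5 regions was repeated within the 4 groups of day 5 score. Group 4 is the widest, with scores of 14.8 to 731.0, so shared and other regions in it may still differ in score. DNase stayed more frequent in the shared regions in each score group, by 2.07 points (0.963 to 3.53) in group 1 and 3.70 points (2.85 to 4.51) in group 4. Flanking H3K27ac of day 4 stayed more frequent in score groups 3 and 4, by 5.10 points (3.46 to 6.75) and 13.6 points (11.9 to 15.3) in the first library. In groups 1 and 2 the intervals of that library spanned 0. In the second library the difference was 2.49 points (0.673 to 4.38) in group 2, 8.10 in group 3 and 17.0 in group 4. Its interval in group 1 spanned 0. A flanking peak in both day 4 libraries was more frequent at shared regions in each score group, by 2.15 points (0.248 to 4.34) in group 1. Flanking H3K27ac of days 5 and 6 turned round. On day 5 the difference, shared minus other regions, was −4.88, −7.02, −8.57 and −3.17 points in groups 1 to 4. On day 6 it was −10.2, −12.1, −11.9 and −4.02 points.

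Day 5 p300 also lost its excess within score groups. It was at 8.02% of shared regions and 6.71% of the others in group 1, a difference of 1.32 points (−0.293 to 3.24). In group 4 it was at 38.8% of shared regions and 47.8% of the others, a difference of −9.00 points (−10.8 to −7.24). The excess of 11.5 points over the whole list was thus not seen among regions of like score. In group 2 the interval of the difference spanned 0. The factors stayed rarer in the shared regions in every score group. In group 4, Isl1 in any library was at 0.558% of shared regions and 17.7% of the others, and day 6 Onecut1 was at 5.51% and 14.5%.

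**Figure D5:**
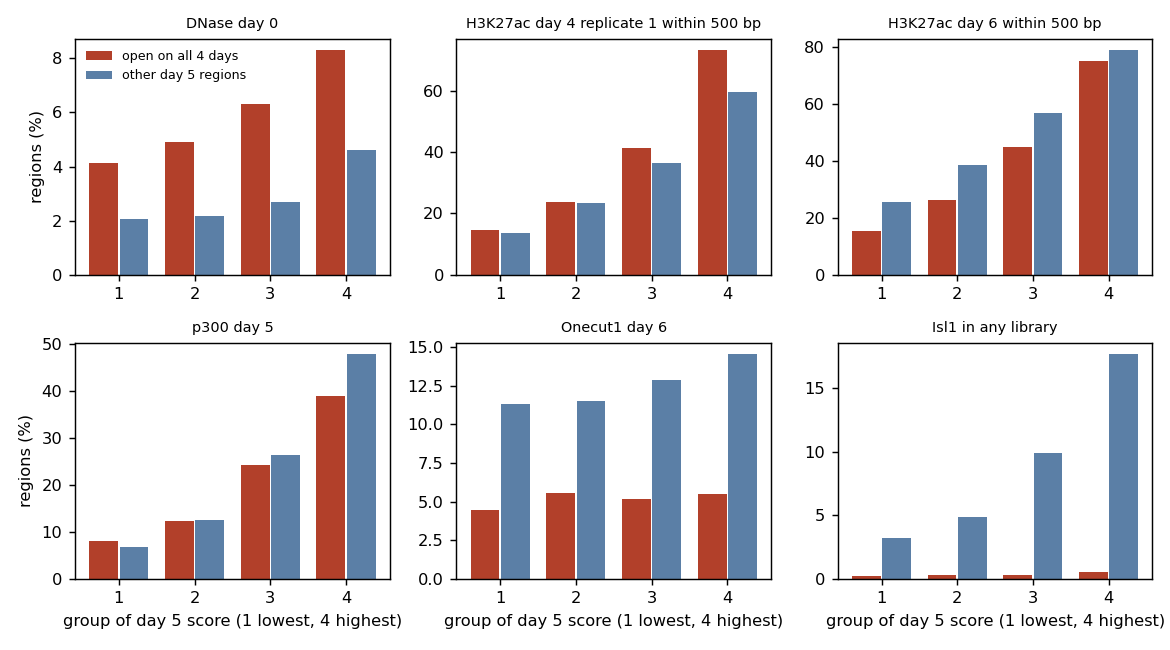
Percent of regions that hold 6 features within 4 groups of day 5 ATAC score, from the lowest (1) to the highest (4), for regions open on all 4 days (red, left) and other day 5 regions (blue, right). Red is higher for DNase in each score group, lower for day 6 H3K27ac, Onecut1 and Isl1 in each, and lower for p300 in groups 3 and 4.

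The regions fell into few broad kinds. Of the 18383, 7736 (42.1%) held none of the 15 mapped features on or within 100 bp, 4005 (21.8%) held H3K27ac but no factor or p300, 3916 (21.3%) held both, and 2373 (12.9%) held a factor or p300 without H3K27ac. The remaining 353 (1.92%) held DNase alone. The same split is not given for the other day 5 regions, so these kinds are not shown to be particular to the shared ones. A factor or p300 was held by 34.2% of shared regions and 34.1% of the others, with a background of 34.1%. H3K27ac in any library was on 43.1% and 36.4%, with a background of 38.6%. Any feature was held by 57.9% of the shared regions and 55.3% of the others. Among regions of like score the difference turned round, with −13.7, −16.4, −18.2 and −14.4 points in score groups 1 to 4. With H3K27ac counted within 500 bp, 5395 shared regions (29.3%) remained without any feature, against 36.1% of the others.

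The strongest regions without a feature were chr16:11144157-11144256, chr9:3024076-3024175 and chr13:9010967-9011066. The chromosome 16 region scored 208.2, 304.8, 208.3 and 368.3 on days 2, 4, 5 and 6, near the top of each list, and the chromosome 13 region 181.4, 315.6, 192.7 and 275.1. The chromosome 9 region lay next to a peak left out for its score. No region held DNase, every H3K27ac library, both p300 libraries and both Onecut1 libraries. Asking for DNase, every H3K27ac library and day 5 p300, a rule relaxed after this was seen, gave 116 regions, of which 7 held Onecut1 on day 6 and 1 held p300 on day 6. The combination was not counted among the other day 5 regions, so it is not shown to be particular to the shared ones. The strongest of the 116 regions, chr8:19784589-19784688, scored 170.2, 250.1, 410.3 and 563.6 on days 2, 4, 5 and 6 and held Onecut1 on both days. Below it, chr2:112219322-112219421 scored 37.5, 44.6, 55.8 and 78.2, and chr8:71919416-71919515 scored 27.3, 40.1, 64.1 and 89.1, on the same days.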

How the data were processed

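Each list is 1 library, and the coordinates are mm9. Per the submitters' processing notes, the tools were HOMER 4.7.2, Bowtie 0.12.7, MACS and STAR on build mm9, with no step stated for any of them. The ATAC lists were deposited by the authors with a score and a p-value per peak, all at or under 9.99e-05. H3K27ac peaks (named MACS, per the file headers), DNase and Ngn2 positions carry a deposited score whose meaning is not given. p300, Isl1, Onecut1 and the library labelled Lhx3 were deposited as point events with reads per event, an unscaled signal. Sequencing depth is unknown. RNA-seq, IgG and input samples were not used here, and no gene was placed near a region for want of an mm9 annotation.

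Overlaps were computed with Python 3.11.15, numpy 2.4.6, pandas 2.3.3 and scipy 1.17.1, intervals with scipy and statsmodels 0.14.6, figures with matplotlib 3.10.9. A region held an H3K27ac peak at 1 bp of overlap, and a point feature within 100 bp of its edge. The overlap code was tested on simulated regions. No test was run, because each day is 1 library and regions are not replicates. The members, lists and comparisons were chosen with earlier results of these data known.

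Regions named are those with the highest median ATAC percentile (5), the strongest day 5 p300 (3), the strongest day 6 Onecut1 bound also on day 5 (3), the highest mean Isl1 reads in at least 3 libraries (3), the strongest with every feature (none existed, so a relaxed rule was used) or with none (3), and the peaks left out. Alternatives changed the overlap, score minimum, reference list, windows and libraries, and compared regions within 4 groups of day 5 score.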

Additional observations from a re-analysis of the deposited data

How the results depend on the processing

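The number of regions stayed between 15942 and 18394 when no peak was left out, when peaks were left out of the day 5 list alone, when the day 4 or day 6 list was the starting one, or with 1 region per 1 kb cluster. It was 12029 with an overlap of at least 50% of the narrower peak and 10914 with peaks at or above each list's median score. Shares of these regions depended on windows and score. Day 0 DNase was at 4.59% with a window of 0 bp, 8.13% with 250 bp, 8.36% at or above the median score and 7.78% with 1 region per cluster. Day 5 H3K27ac was at 12.2% with the 50% overlap, 17.5% at or above the median score, 6.87% when it had to cover 50% of the region, 40.4% within 500 bp and 10.4% with 1 region per cluster. Day 5 p300 was at 26.5% with the 50% overlap, 38.3% at or above the median score, 10.9% with a window of 0 bp and 39.6% with 250 bp. Day 6 Onecut1 was at 2.70% and 7.14%, and Isl1 in any library at 0.212% and 0.528%, with windows of 0 and 250 bp. Leaving out 1 Isl1 library gave 0.305% to 0.381%, and asking for 1 of the 2 day 4 H3K27ac libraries gave 30.6% to 31.3% in place of 26.8% for both.

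Within the 4 groups of day 5 score, lowest to highest, the difference between shared and other day 5 regions was 2.07, 2.72, 3.64 and 3.70 points for DNase. It was −2.37, −3.83, −5.07 and −5.72 points for day 5 H3K27ac on the region, and −4.88, −7.02, −8.57 and −3.17 points within 500 bp, both reversed. For day 5 p300 it was 1.32, −0.209, −2.23 and −9.00 points, for day 6 Onecut1 −6.89, −5.91, −7.67 and −9.02, and for Isl1 −3.02, −4.60, −9.63 and −17.1. With 1 region per cluster the difference was 2.63 points for day 5 H3K27ac, −8.34 for Onecut1 and −7.77 for Isl1. The cause was not tested. The windows of 0 and 250 bp for DNase, the distance of 500 bp, the clusters and the exclusion on day 5 alone were chosen after seeing the data. DNase coverage of 50% of a region was not run, because the list holds positions. No paired analysis was possible because no test was run and each ATAC day has 1 library. Depth is unknown, so unlisted regions are not shown to be closed or unbound.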
